A study of Homo sapiens with 2 samples.

Results

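Expression of COLGALT1 and 9 further genes for collagen-modifying enzymes and their chaperones was examined in KYSE150 cells after stable knockdown of the long non-coding RNA lncRNA625. The set was chosen by name, with earlier results of these data known. It held COLGALT1 (older symbol GLT25D1), PLOD1, PLOD2, PLOD3, P4HB, SERPINH1, P3H1 (older symbol LEPRE1), CRTAP, LOX and LOXL2. Each of the 10 genes was measured by 1 row of the array that carried its symbol alone, out of 22465 genes measured in this way. KYSE150 is an established cell line from a human squamous carcinoma of the esophagus. Control cells carried a scrambled short hairpin (shscramble) and knockdown cells a hairpin against lncRNA625 (shlncRNA625). Both hairpins were delivered by lentivirus, the knockdown cells were selected with puromycin, and multiple clones were screened by PCR. How many clones gave the RNA on the array is not stated in the sources used here, and the description of the knockdown sample speaks of siRNA instead of a hairpin. Each group held 1 Affymetrix Human Transcriptome Array 2.0, so no value has an error, no test was possible, and precision is limited by there being 2 arrays. A difference between the arrays compares these 2 samples, not the conditions.

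Collagens are folded in the endoplasmic reticulum, where enzymes modify their chains before the triple helix closes. Prolyl hydroxylases act on proline, and the hydroxyproline made by prolyl 4-hydroxylase keeps the helix stable at body temperature. Lysyl hydroxylases (the PLOD enzymes) act on lysine, COLGALT1 adds galactose to the hydroxylysine, and lysyl oxidases cross-link the secreted fibrils through lysine and hydroxylysine. In tumors, this machinery is best known from fibroblasts of the stroma, and PLOD2, P4HA1 and LOX are also known as genes that hypoxia induces through HIF1.

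The upstream sequences of 3 genes are shown, because these genes differed past or nearest to the 1.5-fold limit: COLGALT1 and PLOD2 within the set, and P4HA1 among the other collagen-modifying genes. Each is the 250 bases before the gene's start in RefSeq (GRCh38.p14), written 5′ to 3′ along the gene. They lie at chr19:17555399-17555648 (plus strand), chr3:146161185-146161434 (minus strand) and chr10:73096867-73097116 (minus strand). Capitals mark matches on either strand to ACGTG (the core of the hypoxia response element), to CCAAT (the CCAAT box), or to TGACGTCA (the cAMP response element). The words GAANNTTC and TTCNNGAA, parts of the heat shock element, were searched too and had no match here.
COLGALT1: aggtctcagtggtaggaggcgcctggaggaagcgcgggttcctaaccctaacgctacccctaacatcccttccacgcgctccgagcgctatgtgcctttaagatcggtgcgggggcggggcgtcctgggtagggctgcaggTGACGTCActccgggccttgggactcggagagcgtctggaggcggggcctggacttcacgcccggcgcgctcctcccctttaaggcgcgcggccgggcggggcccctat
PLOD2: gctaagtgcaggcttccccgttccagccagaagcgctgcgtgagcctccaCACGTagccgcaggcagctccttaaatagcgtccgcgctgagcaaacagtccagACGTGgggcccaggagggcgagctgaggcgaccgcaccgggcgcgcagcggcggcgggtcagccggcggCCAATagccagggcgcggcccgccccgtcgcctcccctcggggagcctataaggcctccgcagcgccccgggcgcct
P4HA1: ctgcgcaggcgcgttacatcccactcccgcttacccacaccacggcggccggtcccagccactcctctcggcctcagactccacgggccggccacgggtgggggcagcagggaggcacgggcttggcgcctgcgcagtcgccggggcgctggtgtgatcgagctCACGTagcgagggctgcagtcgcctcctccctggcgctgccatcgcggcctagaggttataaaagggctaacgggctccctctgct
The window of COLGALT1 held no ACGTG and no CCAAT, and had 1 match to TGACGTCA, a word added after the sequence had been read. That of PLOD2 held 2 matches to ACGTG and 1 to CCAAT, and that of P4HA1 held 1 match to ACGTG. Over 35116 RefSeq promoter windows of this length, 18.5% held ACGTG, 32% CCAAT, 1.65% TGACGTCA, 5.78% GAANNTTC and 6.62% TTCNNGAA. Promoters of 9 of the 10 genes were matched, and at the first listed start site 2 of the 9 held ACGTG (PLOD2 and LOX) and 3 held CCAAT (PLOD2, P4HB and LOX). SERPINH1 was the 1 gene of the 9 with a match to GAANNTTC and to TTCNNGAA. A match in these windows is a description of the sequence and not evidence of a factor bound there.

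COLGALT1 was lower on the knockdown array, and PLOD2 and LOXL2 were higher by less than 1.5-fold. The other 7 genes had exactly the same value on both arrays. The values are levels on the log2 scale of the deposited table, and differences are knockdown minus control. A gene counted as measured with signal where the mean of the 2 arrays reached 4.97, the median of all rows with 1 symbol. Of the 10 genes, 9 passed this limit and LOX did not. Of the 9, 1 was lower by more than 1.5-fold, while 0.477% of all 11323 genes past the limit were. That gene was COLGALT1, for which the set is named. The set was chosen with earlier results of these data known, so these shares cannot be compared as a test. None of the 9 was higher by more than 1.5-fold, against 1.11% of all genes. At 2-fold, the limit in the study's methods, 0 of the 9 were lower and 0 higher, against 0.0971% and 0.291% of all genes. Counting differences of any size, 2 of the 9 were higher, 1 was lower and 6 were equal, with a median of 0. Over all genes 11.8% were higher, 12.1% lower and 76% equal, also with a median of 0. The 10-gene set thus did not move together, and its counts of higher and lower genes lay near those of all genes. These shares are not matched by signal. The 9 genes had means of at least 6.94, while all genes include 2388 with means below 6, of which 90.4% were equal. The limit of 4.97 itself lies inside the range of the background rows, which reached 6.003.

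**Figure D1:**
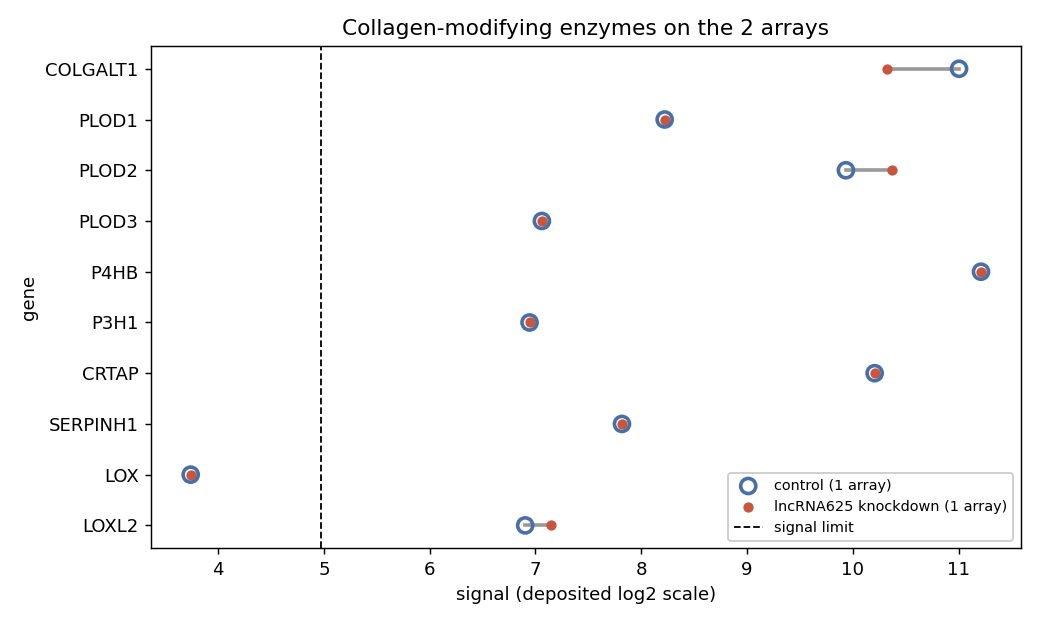
Signal of the 10 genes on the control array (open circles) and the lncRNA625 knockdown array (filled points), on the deposited log2 scale, with 1 array per group and no error bars. The dashed line is the signal limit of 4.97. COLGALT1 lies to the left of its control value, PLOD2 and LOXL2 lie to the right, and the points of the other 7 genes coincide.

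COLGALT1, the galactosyltransferase that starts the sugar chains on collagen hydroxylysine, read 11.004 in control and 10.33 in knockdown cells. The difference of -0.68 corresponds to a 1.60-fold lower signal and lies just beyond the 1.5-fold limit of 0.58. It took rank 35 from the lowest among the 11323 genes past the limit. Of 816 other genes whose mean signal lay within 0.5 of that of COLGALT1, 5 were lower by more than 1.5-fold and 2 were as low as COLGALT1 or lower. Where genes of this signal differed at all, the median size of the difference was 0.12. COLGALT1 was among the genes for which the study designed PCR primers, and it took representative genes for PCR from these arrays, so its place beyond the limit is not independent of that choice. The pair is shown as the study lists it, under GLT25D1. Its place in the transcript was not examined here, and the study's text names no PCR result for this gene.
GLT25D1 forward: gaaacactggtctgactcacgctac
GLT25D1 reverse: cttgtagtagccctgggaagtcatt
The array summarises all probes of the gene in 1 value, so the level over the stretch between these primers cannot be read from it.

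The genes whose pair of values lay nearest to that of COLGALT1, by the sum of the absolute distances on the 2 arrays, were TGFBR2 (distance 0.16), SNORD14D (0.20), RAB14 (0.28) and MAP4K5 (0.29). TGFBR2, a receptor for TGF-beta, read 11.03 and 10.47, a difference of -0.56, and thus stayed inside the 1.5-fold limit. RAB14, a small GTPase of endosomal traffic, read 11.11 and 10.49, a difference of -0.62. With 2 arrays this likeness rests on 2 values a gene. On chromosome 19, the 3 nearest protein-coding genes on either side of COLGALT1 were equal on both arrays. Of these 6, only PGLS, at 6.95, and MAP1S, at 6.51, passed the signal limit, while SLC27A1, NIBAN3, UNC13A and FCHO1 lay between 3.85 and 4.94. None of these neighbors was lower, but most were too dim to show a difference. Of 3904 genes with means from 6 to below 8, the range of PGLS and MAP1S, 83.4% were exactly equal on both arrays. The equality of PGLS and MAP1S thus says little about their level, and whether the lower signal of COLGALT1 is shared at this locus cannot be read from these values.

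The 3 lysyl hydroxylases, which make the hydroxylysine that COLGALT1 glycosylates, did not differ alike. PLOD2, the enzyme that hydroxylates the telopeptides of fibrillar collagens, read 9.93 in control and 10.37 in knockdown cells. Its difference of 0.44, 1.35-fold, stayed inside the 1.5-fold limit and went the other way from that of COLGALT1. It took rank 188 from the highest of all genes, and 17 of 974 other genes of like signal were as high. PLOD1, which hydroxylates lysine in the helical part, was equal at 8.22. PLOD3, a lysyl hydroxylase that also carries glycosyltransferase activity and adds glucose to the galactose set by COLGALT1, was equal at 7.06. An exactly equal value says little about the level, since 75.3% of 1641 genes of the signal of PLOD1 and 83.1% of 1952 genes of that of PLOD3 were exactly equal too.

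Prolyl hydroxylation was represented by 3 genes of the set, all equal on both arrays. P4HB, the beta subunit of prolyl 4-hydroxylase, which is also protein disulfide isomerase, was equal at 11.21. P3H1, the prolyl 3-hydroxylase of fibrillar collagens, was equal at 6.94, and CRTAP, its partner protein, at 10.21. At the signal of P3H1, 83.2% of 1976 genes were exactly equal, so its value says little about its level. At the signals of P4HB and CRTAP, exactly equal values were less common, with 56% of 697 and 62.7% of 959 genes. SERPINH1, the chaperone that binds the folded procollagen helix and that heat shock is known to induce, was equal at 7.82, as were 78.2% of 1735 genes of like signal.

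The lysyl oxidases gave 1 gene with signal. LOXL2, a secreted lysyl oxidase known for its part in tumor invasion, read 6.90 in control and 7.15 in knockdown cells. The difference of 0.25, 1.19-fold, was the smallest of the 3 in the set, and 63 of 1953 genes of like signal were as high. LOX, the founding member of the family, read 3.74 on both arrays, below the limit and inside the range spanned by 23 rows of background probes (median 3.34, highest 6.003). Exactly this value stood in 616 rows of the control array. No level of LOX in these cells can be read from it, and its equality says nothing about knockdown.

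**Figure D2:**
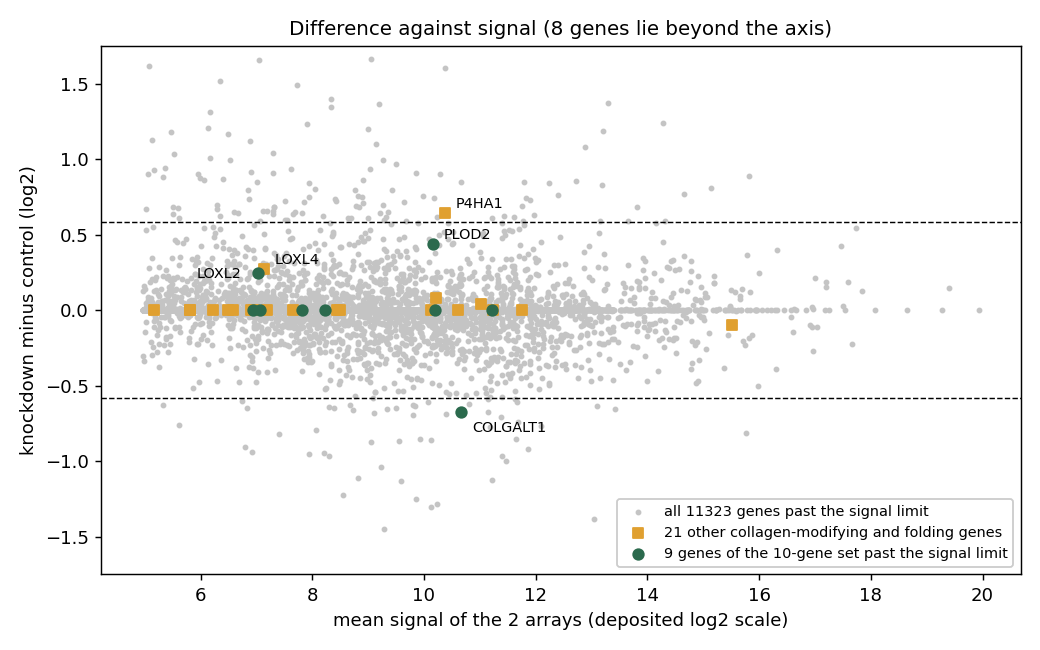
Difference between the arrays (knockdown minus control, log2) against the mean signal of the 2 arrays, for all 11323 genes past the signal limit (gray), 9 genes of the 10-gene set (green circles) and 21 other collagen-modifying and folding genes (orange squares). The dashed lines are the 1.5-fold limits, and 8 genes lie beyond the axis. COLGALT1 is the green circle below the lower line, P4HA1 the square above the upper line, and most other marked genes lie on 0.

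The other genes of collagen modification, folding, processing and export were taken as a list of 30, of which 29 had a row of their own and 21 passed the signal limit. COLGALT2, the paralog of COLGALT1, lay in a row that also listed GLT25D2, which RefSeq gives as an older symbol of the same gene. This row was left out of the counts for its 2 symbols, and it read 3.98 on both arrays, below the signal limit. Of the 21 genes, 4 were higher, 1 was lower and 16 were equal, against 11.8%, 12.1% and 76% of all genes. The median was 0. By more than 1.5-fold, 1 was higher and 0 were lower, against 1.11% and 0.477% of all genes. The 1 gene was P4HA1, an alpha subunit that carries the catalytic site of prolyl 4-hydroxylase, which read 10.05 in control and 10.69 in knockdown cells. Its difference was 0.64, 1.56-fold, and 5 of 868 other genes of like signal were as high. Its partner P4HB was equal, as was the alternative alpha subunit P4HA2, at 7.18. Of 1934 genes of the signal of P4HA2, 82.6% were exactly equal too, so its equality says little about its level. P4HA3 and the prolyl 3-hydroxylase P3H3 lay below the limit. P3H2, a further prolyl 3-hydroxylase, was equal at 11.75, as were 51.6% of 583 genes of like signal.

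LOXL4, a further lysyl oxidase, was at 7.27 in knockdown cells and differed by 0.27, close to the 0.25 of LOXL2, and LOXL1 was equal at 6.22. Among the folding factors, PPIB, the prolyl isomerase cyclophilin B that joins P3H1 and CRTAP in a complex, was the 1 lower gene, at 15.56 and 15.47, a difference of -0.10. Each of the 3 genes of that complex thus read the same or nearly the same on both arrays. Equality was also the usual outcome, with 83.2% of genes at the signal of P3H1 and 62.7% at that of CRTAP, so it says little about their level. FKBP10, a prolyl isomerase that acts with PLOD2, was equal at 10.12, as were 63.1% of 979 genes of like signal. The genes of procollagen export held MIA3, the cargo receptor at endoplasmic reticulum exit sites, with 0.077, and the coat subunit SEC23A with 0.041, while the other 5 were equal. Of 8 genes of propeptide removal, BMP1, PCOLCE and PCOLCE2 passed the limit and were equal, and PCOLCE and PCOLCE2 lay within the range of the background rows, as did the COLGALT1 relative CERCAM.

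**Figure D3:**
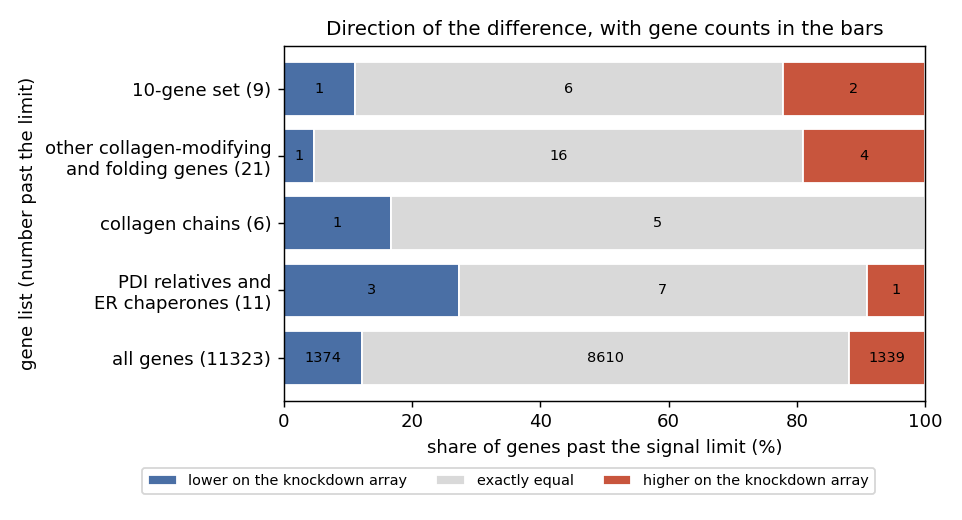
Share of genes past the signal limit that were lower (blue), exactly equal (gray) or higher (red) on the knockdown array, in the 10-gene set, 3 further lists and all genes, with the number of genes in each bar. Equal values fill most of every bar, with 6 of 9 genes in the 10-gene set and 8610 of 11323 over all genes.

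The substrates of these enzymes, the collagen chains, gave little signal in KYSE150 cells where they had a row of their own. Of 41 collagen chain genes with a row of their own, 6 passed the limit. Of the 6, 5 were equal, against 76% of all genes past the limit. COL3A1, COL17A1 and COL26A1 had no row of their own and are not in these counts. COL26A1 lay in a row that also listed EMID2, which RefSeq gives as the same gene. That row read 5.01 on both arrays, past the limit but within the range of the background rows. The row that listed COL3A1 with MIR3606 read 4.14 on both arrays, below the limit. COL12A1, a chain of a fibril-associated collagen, read 8.34 in control and 7.91 in knockdown cells, a difference of -0.42, or 1.34-fold lower. COL4A1 and COL4A2, the basement membrane chains, were equal at 6.42 and 6.46, and COL4A5, COL7A1 and COL23A1 lay within the range of the background rows. The chains of the fibrillar collagen type I were below the limit, with COL1A1 at 4.41 and COL1A2 at 4.24 on both arrays.

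Because P4HB is also protein disulfide isomerase, its relatives and the chaperones of the endoplasmic reticulum were set beside it. Of 11 with a row of their own, all past the limit, 7 were equal, 3 were lower and 1 was higher. Over all genes, 76% were equal, 12.1% lower and 11.8% higher. The higher one was ERO1A, the oxidase that recharges protein disulfide isomerase and a known hypoxia-induced gene, at 12.77 and 13.60, a difference of 0.83, or 1.78-fold. By more than 1.5-fold, 1 of the 11 was thus higher and 0 were lower, against 1.11% and 0.477% of all genes. Of 204 other genes of the signal of ERO1A, 4 were as high and 46.6% were equal. TXNDC5, a relative of P4HB, differed by -0.20, HSPA5 by -0.069 and CALR by -0.046.

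Markers of other cell types were checked, since collagen-modifying enzymes are strongly made by fibroblasts. Of 14 markers of fibroblasts, endothelium and leukocytes, 13 had a row of their own, and 0 of the 13 passed the signal limit. Their values, between 3.50 and 4.68, were the same on both arrays, and so was the log2 of their summed signal, at 7.86. Of 9 squamous epithelium markers, 7 had a row of their own and all 7 passed the limit, with 4 lower, 2 equal and 1 higher on the knockdown array. Over all genes past the limit, 12.1% were lower, 76% equal and 11.8% higher. KRT5, SFN, CDH1 and DSP had means above 12. Of 713 genes with means of 12 or more, 30.2% were lower, 44.9% equal and 25% higher. CDH1 differed by 0.58, KRT5 by -0.39, DSP by -0.36, DSG3 by -0.27 and SFN by -0.19, while PKP1 and KRT14 were equal and KRT14, at 5.63, lay within the range of the background rows. The log2 of the summed signal of the 7 was 17.16 in control and 16.94 in knockdown cells. This lower sum rested on KRT5, without which it was 15.73 and 15.76, a setting chosen after seeing the data. The part of these differences in the result for COLGALT1 was not tested. No row was tied to lncRNA625, so the knockdown itself was not analysed here.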

How the data were processed

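Total RNA of the 2 samples was amplified, labeled with biotin and run on Affymetrix Human Transcriptome Arrays 2.0. The authors deposited log2 values from RMA (named in the labels without a version), which corrects background, normalizes quantiles and summarises the probes of a row. They reach 19.93, which log2 of a 16-bit scanner does not allow, so a further, unstated step is likely, and folds hold on the deposited scale only. The genome build behind the array's rows is not stated in the sources used here.

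Of 70523 rows, 23781 carried exactly 1 gene symbol in the platform annotation and 1543 carried several. Symbols were updated by gene ID to RefSeq (GRCh38.p14), which matched 21497 rows, and each of 22465 genes was represented by its brightest row by the mean of both arrays. Genes were kept at a mean of 4.97 or more. The limit of 1.5-fold is that of the study's text, and 2-fold, from its methods, was an alternative. Named are the 10 genes, in each further list every gene past 1.5-fold and otherwise the 4 with the largest absolute difference, 3 neighbors of COLGALT1 on each side and the 4 genes nearest to it. Other genes were named after their values were seen, to complete a complex or family. The 10 genes and the lists were chosen with earlier results of these data known. The alternatives tried were centring on medians, another round of quantile normalization, loess (span 0.3), averaging a gene's rows, dropping the filter and raising it to the 75th percentile. The steps were tested on simulated data, a copy of the control array with known shifts and no noise. This checks the counting of genes only. Protein sequences were not used here. Python 3.11.15, pandas 2.3.3, NumPy 2.4.6, statsmodels 0.14.6 and matplotlib 3.10.9 were used.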

Additional observations from a re-analysis of the deposited data

How the results depend on the processing

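The difference of COLGALT1 ranged from -0.69 to -0.67 over the normalizations, row rules and filters tried, and those of PLOD2 from 0.43 to 0.44, of LOXL2 from 0.23 to 0.25 and of P4HA1 from 0.63 to 0.64. None of these, nor the differences of ERO1A, COL12A1 and LOXL4, changed its sign or its side of the 1.5-fold limit where it could be recomputed. Most alternatives could not change them. Each of these genes had 1 row, a filter leaves a difference as it is, and loess returned the same values. Only median centring and the second quantile normalization altered them. At the 2-fold limit, 0 genes of the 10-gene set were lower, and 0 of the other collagen-modifying genes and 0 of the protein disulfide isomerase relatives were higher. With the filter at the 75th percentile, at a mean of 7.60, 6 genes of the 10-gene set, 11 of the other collagen-modifying genes and 1 collagen chain remained. The chain was COL12A1, and the median of that list became -0.42. LOXL2 and LOXL4 gave no value under this filter. Without the filter the list of chains grew to 41. Of 152 comparisons of a result with an alternative, 145 moved by less than 0.1 on the log2 scale or by at most 1.5 times for a count, and 7 moved by more. Many of the 152 could not move by their construction, so the 145 do not measure how robust the results are. The median over all genes was -0.0073 after median centring and -0.018 after the second quantile normalization, so exactly equal genes took small negative values there. No paired analysis was possible because each group held 1 array, and for the same reason no array could be left out. Signal over background limits what LOX, CERCAM, PCOLCE, PCOLCE2 and most collagen chains can show.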

Other observations

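Many rows held exactly the same number as other rows of the same array. Of 11142 genes below the signal limit, 94.2% had a control value that at least 1 other row also held, and the value of the median gene stood in 147 rows. The value of LOX stood in 616 rows of the control array. In the same way ADAMTS2 and ADAMTS14 both read 4.16, and ADAMTS3 and TLL1 both read 3.58, to all deposited digits. Among the 11323 genes past the limit, 53.5% had a shared value, and of 2244 genes whose mean reached 10, 13.6% had one.

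Shared values went with equality between the arrays. Of genes past the limit, 91.8% of the 6056 with a shared value were equal on both arrays, against 57.9% of the 5267 with a value of their own. At means of at least 10, the shares were 70.9% of 306 and 51.2% of 1938. The equal share fell with signal, from 90.4% of 2388 genes with means from 4.97 to below 6 to 44.9% of 713 genes with means of 12 or more. Within the 10-gene set, PLOD1, PLOD3, P3H1, SERPINH1 and LOX were equal with shared values, P4HB and CRTAP were equal with values found in no other row, and LOXL2 differed although 3 rows held its control value. The cause of the shared values was not tested.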
